A study of Mus musculus with 24 samples.

Results

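The genes described here encode the subunits of oxidative phosphorylation, the machinery on the inner mitochondrial membrane that turns nutrients and oxygen into ATP. They were chosen by symbol, as the Nduf, Sdh, Uqcr, Cox4 to Cox8 and Atp5 genes of the nucleus and the mt-Nd, mt-Co, mt-Cytb and mt-Atp genes of the mitochondrial genome, with 3 pseudogenes left out. This gave 96 genes of the 49280 features in the count table, 83 of them nuclear and 13 mitochondrial. A pair of the nuclear genes found this way are not structural subunits, namely Atp5s, a coupling factor, and Atp5sl, an assembly factor, and they are counted apart from the complexes.

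Electrons from food enter the chain at complex I (NADH dehydrogenase) or complex II (succinate dehydrogenase), pass through complex III (the cytochrome bc1 complex) and reach oxygen at complex IV (cytochrome c oxidase). Complexes I, III and IV pump protons across the membrane, and complex V, the ATP synthase, uses their return to make ATP. The mitochondrial genome encodes core subunits of complexes I, III, IV and V, so both genomes must supply each of these, while complex II is encoded by the nucleus alone. In the lung, secretory and multiciliated epithelial cells as well as matrix-producing fibroblasts draw on mitochondrial ATP.

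The study asked whether tanimilast, a phosphodiesterase 4 inhibitor, with formoterol, a beta-2 adrenoceptor agonist, alters lung epithelial progenitors after exposure to cigarette smoke extract (CSE). Primary lung epithelial cells of wild-type (WT) mice were grown as organoids with CCL206 cells, a single mouse lung fibroblast line. They received 5% CSE or vehicle until day 14, were dissociated and plated again with fresh CCL206 cells that had not met CSE, and then received vehicle or 100 nM of each drug until RNA was taken on day 28. The labels give animal age for none of the groups used here.

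Libraries came from an Epcam-positive fraction (Epi) and an Epcam-negative fraction (Fib), and the treatments are written Veh (vehicle throughout), CSE (CSE, then vehicle), TF (vehicle, then both drugs) and CSETF (CSE, then both drugs). The 8 groups had 3 libraries each, from mouse 1, 2 and 3 by the batch label, with 31832267 to 47534709 counts per library. An Epi and a Fib library of the same mouse and treatment are called a fraction pair, and the labels do not state that both came from the same culture. Levels are CPM, counts scaled by library size and TMM. Log2 fold changes are given ± SE, and a gene is called at an adjusted p under 0.05 in edgeR's quasi-likelihood test with Benjamini-Hochberg adjustment over all genes tested. Every adjusted p below is from that test unless another is named.

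The fractions matched their labels in part. The 9 epithelial markers, Epcam and keratins among them, summed to 6770 to 9450 CPM in the Epi libraries and to 2270 to 4610 CPM in the Fib libraries, and all 9 were called higher in Epi. Of the 9 fibroblast markers 8 were tested and all 8 were called lower in Epi, with sums of 117 to 825 CPM in Epi and 1120 to 5410 CPM in Fib. Each fraction therefore held RNA of the other. The library of FibCSE mouse 1 stood apart, with 2210 CPM of the collagen gene Col1a1 against 234 to 1010 CPM in the other Fib libraries. The 1010 CPM belonged to FibCSETF of the same mouse. Proliferation markers summed to 616 CPM in FibCSE of mouse 1, against 198 and 190 CPM in mouse 2 and 3. In every group of either fraction this sum was highest in mouse 1. Markers of other cells were mixed within their lists. Among leukocyte markers, Ptprc averaged 0.0225 CPM in Epi and 0.0693 CPM in Fib, whereas Cd68, a lysosomal protein of macrophages, averaged 53.6 and 38.7 CPM and Lyz2, a lysozyme, 17.1 and 17.9 CPM. The mesothelial marker Msln was at 1670 and 989 CPM while Upk3b was at 0.178 and 0.21 CPM, and Des, a muscle gene, was at 3.96 and 24.5 CPM. The 4 endothelial markers averaged at most 0.892 CPM (Pecam1 in Fib).

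Nuclear genes of oxidative phosphorylation were lower in the epithelial than in the fibroblast fraction. Averaged over the 4 treatments, 59 of the 80 nuclear genes tested (73.8%) were called lower in Epi, 5 were called higher and 16 were not called. Among all 19142 genes tested, 34.2% were called lower and 34.7% higher, so a call by itself was common in this comparison. The median log2 fold change was -0.25 over the nuclear genes and 0.025 over all genes. Of the 13 mitochondrial genes 7 were called lower and 0 higher, with a median of -0.21. In these bulk samples, fewer cells of a type and less RNA per cell cannot be told apart.

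The summed level of the 83 nuclear genes kept the fractions apart in every library. It ran from 6770 to 7446 CPM in Epi (mean 7028, SD 246, n = 12) and from 7678 to 8969 CPM in Fib (mean 8170, SD 400, n = 12), with no overlap. The sum of the 13 mitochondrial genes did overlap, at 39504 to 54191 CPM in Epi and 43723 to 60686 CPM in Fib. Cytosolic ribosomal protein genes moved in the same direction, at 33487 to 41866 CPM in Epi and 34514 to 44863 CPM in Fib, and their part in the result was not tested. The median nuclear gene was lower in Epi than in Fib in 12 of 12 fraction pairs, with medians from -0.055 in TF of mouse 3 to -0.384 in Veh of mouse 3 on the log2 scale.

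**Figure D1:**
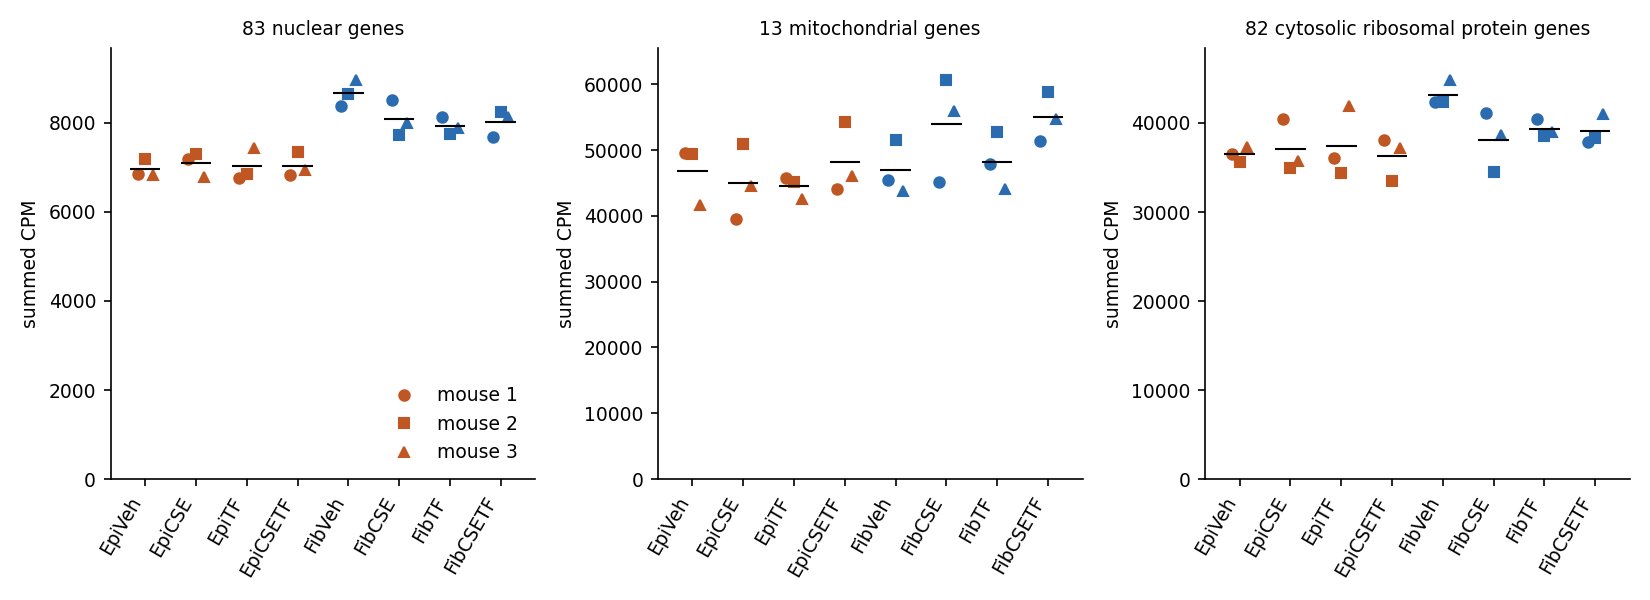
Summed CPM of the 83 nuclear genes, the 13 mitochondrial genes and 82 cytosolic ribosomal protein genes in each of the 24 libraries, by group. Points are libraries (symbols mark the mouse), lines are group means, and the axes start at 0. For the nuclear genes every Epi library, at most 7446 CPM, lies under every Fib library, at least 7678 CPM.

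Complex I, the entry point for NADH, had 29 of its 35 nuclear genes called lower in Epi and 0 called higher, with a median log2 fold change of -0.27. Ndufv3, an accessory subunit of the NADH-binding flavoprotein part (ENSMUSG00000024038), had a lowest, median and highest level of 58.5, 64.9 and 73.7 CPM in Epi and of 96.3, 103 and 127 CPM in Fib. Every Epi library was below every Fib library, and the log2 fold change was -0.72 ± 0.05 (adjusted p = 2.84e-10, lower in 12 of 12 fraction pairs). Ndufa1, a small membrane subunit needed for assembly (ENSMUSG00000016427), had 13.8, 17.2 and 26.6 CPM in Epi and 25.9, 37.6 and 43.6 CPM in Fib. Its ranges met only at their ends, and its log2 fold change was -0.95 ± 0.11 (adjusted p = 2.92e-07).

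Nuclear core subunits of complex I, which carry the flavin and the iron-sulphur clusters, differed among themselves. Ndufv1, which binds NADH, was at 72.9 CPM in Epi (SD 4.27, n = 12) and 101 CPM in Fib (SD 6.45, n = 12), a log2 fold change of -0.46 ± 0.03 (adjusted p = 4.77e-10). Ndufv2 followed at -0.36 ± 0.03, Ndufs7 at -0.25 ± 0.04 and Ndufs1, the largest of the core subunits, at -0.25 ± 0.03 (adjusted p = 2.06e-06). Ndufs3 was called at -0.11 ± 0.04, while Ndufs8 was not called at 0.03 ± 0.04 (adjusted p = 0.536). The core subunits described here spanned from Ndufv1, with no overlap between fractions, to Ndufs8, whose fraction means of 41.6 CPM in Epi and 40.8 CPM in Fib lay within their spread.

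Accessory subunits of complex I held both the larger differences and most of the uncalled genes. Ndufb9 (-0.68 ± 0.05), Ndufa5 (-0.69 ± 0.08), Ndufa11 (-0.60 ± 0.07) and Ndufb8 (-0.42 ± 0.04) were lower in 12 of 12 fraction pairs each. The genes not called were Ndufs4 (0.06 ± 0.03), Ndufs5, Ndufs6, Ndufb3 and Ndufb4, with adjusted p from 0.0656 for Ndufs5 to 0.929 for Ndufs6. Ndufs4 and Ndufs6 belong to the matrix arm and Ndufb8 and Ndufb9 to the membrane arm, but called and uncalled genes were found in both arms. Ndufb3 and Ndufb4 of the membrane arm were not called, and Ndufv3 of the matrix arm was lower at -0.72 ± 0.05.

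Complex II, which links the citric acid cycle to the chain, was split by subunit. Sdhb, the iron-sulphur subunit, had 52.9, 58.5 and 60.7 CPM (lowest, median, highest) in Epi and 60.6, 67.3 and 79.6 CPM in Fib, and was lower in Epi at -0.27 ± 0.03 (adjusted p = 2.22e-07). Sdha, the flavoprotein that oxidises succinate, was lower at -0.13 ± 0.03 (adjusted p = 0.00108, and 0.153 without mouse 3). The membrane anchors were not called, with Sdhc at -0.01 ± 0.03 (adjusted p = 0.796) and Sdhd at -0.04 ± 0.04 (adjusted p = 0.349, and 0.0189 without the library of FibCSE mouse 2). Sdhc had a median of 104 CPM in either fraction, and its ranges of 96.5 to 113 and 95.9 to 111 CPM covered each other.

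Complex III had 5 of its 8 nuclear genes called lower and 1 higher. Uqcrq, a small accessory subunit, had 42.9, 49.2 and 62.3 CPM in Epi and 65.7, 73.2 and 92.9 CPM in Fib, with no overlap and a log2 fold change of -0.56 ± 0.06 (adjusted p = 9.28e-08). Uqcr10 (-0.43 ± 0.06) and Uqcr11 (-0.41 ± 0.07) were close to it. The paired core proteins went in opposite directions: Uqcrc1 was lower at -0.18 ± 0.03 (adjusted p = 3.53e-05), and Uqcrc2 was higher at 0.16 ± 0.05 (adjusted p = 0.0114, higher in 12 of 12 fraction pairs). The call of Uqcrc2 was lost, at adjusted p of 0.0504 to 0.072, without any one of FibTF, EpiVeh, EpiCSE or EpiTF of mouse 1, FibCSE or FibCSETF of mouse 2, or FibCSE, EpiTF or EpiCSETF of mouse 3, and was 0.098 without all of mouse 3. Uqcrfs1, the Rieske iron-sulphur protein at the catalytic centre, was not called at 0.06 ± 0.03 (adjusted p = 0.109). It passed without FibTF of mouse 3 (0.0495), without all of mouse 3 (0.0478) and with scaling that left out mitochondrial genes (0.0435).

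Complex IV had 13 of 16 tested genes called lower and 1 higher among the nuclear genes. Cox8a, the form found in most tissues, had 124, 136 and 172 CPM in Epi and 202, 234 and 280 CPM in Fib, with no overlap and a log2 fold change of -0.72 ± 0.06 (adjusted p = 1.68e-09). Cox5a, a matrix-side subunit, had 68.5, 75.2 and 86.1 CPM in Epi and 97.3, 106 and 125 CPM in Fib, also with no overlap (-0.49 ± 0.03, adjusted p = 3.71e-10). Cox6a1 (-0.53 ± 0.05), Cox6b1 (-0.36 ± 0.04) and Cox7a2 (-0.38 ± 0.04) were lower in 12 of 12 fraction pairs. Cox4i1, which binds ATP and tunes the enzyme, was at -0.16 ± 0.04 (adjusted p = 0.000552), and Cox7a2l, which joins complexes III and IV, was not called at -0.04 ± 0.03 (adjusted p = 0.364).

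The alternative isoforms of complex IV were present at low levels. Per kilobase of exon, the level of Cox4i1 was 298 CPM per kb in Epi against 0.168 CPM per kb for Cox4i2, a form known from lung. Cox7a1, the heart and muscle form, was at 1.52 CPM per kb in Epi and 3.73 in Fib, lower in Epi in 12 of 12 fraction pairs (-1.29 ± 0.17, adjusted p = 1.14e-06). Cox6b2, known from testis, was the complex IV gene called higher in Epi (0.70 ± 0.18, adjusted p = 0.00217), at 1.68 to 3.5 CPM against 0.675 to 2.39 CPM. Cox6a2, the muscle form, was called lower on counts of 0 to 10 in Epi libraries and 0 to 18 in Fib libraries, and no fold is given. Cox8b had 0 to 10 counts, Cox7b2 0 to 4 and Cox8c 0 in every library, and the filter on low counts removed these 3.

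Complex V had 10 of 15 nuclear genes called lower and 1 higher, and its subunits differed among themselves. Atp5k, the small membrane subunit e (ENSMUSG00000050856), had 4.36, 6.09 and 9.86 CPM in Epi and 6.69, 11.8 and 19.2 CPM in Fib, and was lower in 12 of 12 fraction pairs (-0.94 ± 0.14, adjusted p = 7.64e-06). Atp5b, the catalytic beta subunit, was at 777 CPM in Epi (SD 37.5, n = 12) and 937 CPM in Fib (SD 75, n = 12), with -0.27 ± 0.04 (adjusted p = 7.49e-06). Its partner in the catalytic ring, the alpha subunit Atp5a1, was at 659 and 638 CPM (SD 29.1 and 18, n = 12 each) and was not called at 0.05 ± 0.03 (adjusted p = 0.157). The central stalk gene Atp5c1 was also not called at -7e-04 ± 0.03 (adjusted p = 0.986).

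The genes for the membrane c-ring of complex V, which encode the same mature protein, ranged from Atp5g1 (-0.51 ± 0.06) over Atp5g2 (-0.26 ± 0.07) to Atp5g3 (-0.11 ± 0.04), all called. Atp5j, the coupling factor 6 of the stalk, was the subunit gene of complex V called higher in Epi, at 79.6 to 100 CPM against 70.2 to 91.6 CPM in Fib (0.16 ± 0.04, adjusted p = 0.00249, higher in 11 of 12 fraction pairs). Outside the structural subunits, Atp5sl, an assembly factor now known as Dmac2, had 17.5, 22.3 and 25.8 CPM in Epi and 11.7, 15.1 and 17 CPM in Fib, and was the nuclear gene with every Epi library above every Fib library (0.61 ± 0.07, adjusted p = 2.12e-07). Atp5s, or factor B, was higher at 0.30 ± 0.07 (adjusted p = 0.000799).

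**Figure D2:**
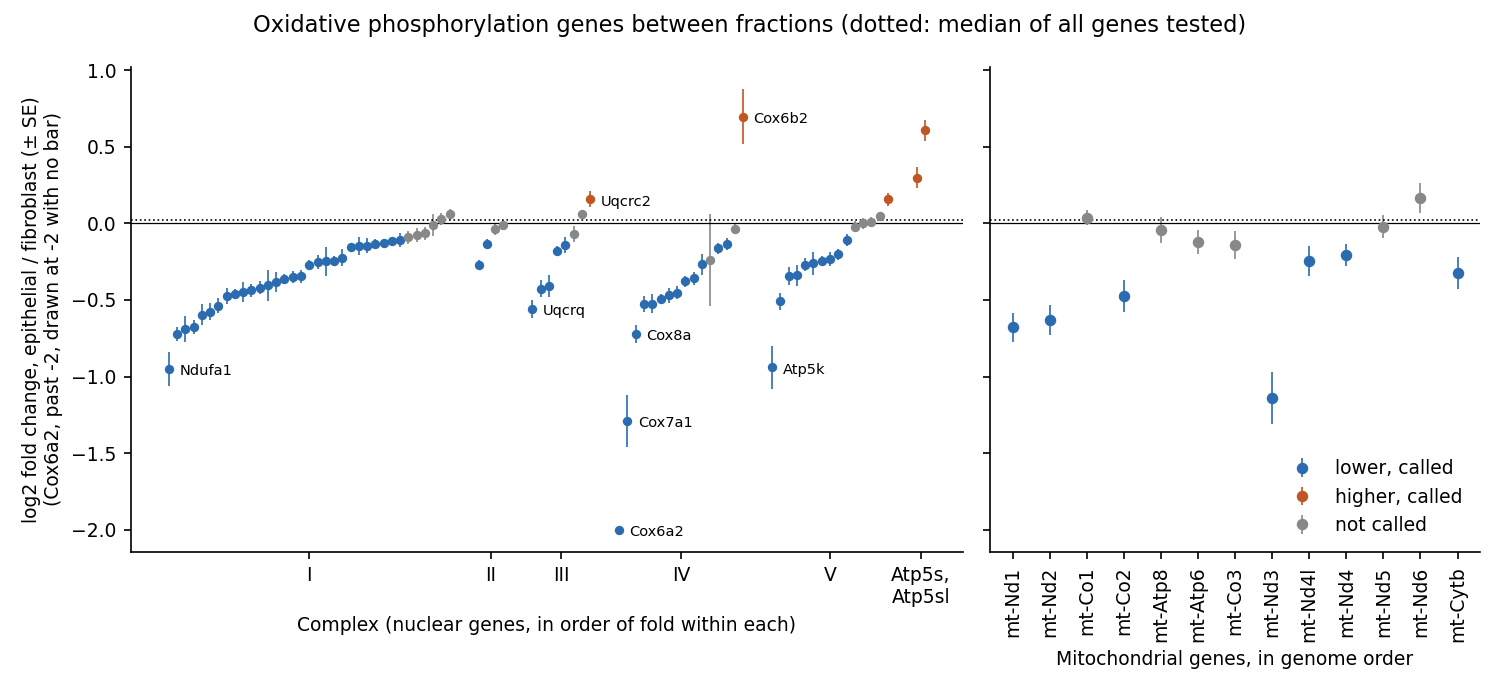
Log2 fold change of each gene, epithelial over fibroblast fraction, ± SE, with nuclear genes by complex on the left and mitochondrial genes in genome order on the right. Blue genes were called lower, orange higher and grey were not called; the dotted line is the median of all genes tested, 0.025. The 59 blue nuclear genes lie in all 5 complexes, and Cox6a2, whose counts were near 0, is drawn at the edge.

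Separation of the fractions gene by gene was seen for a minority of the nuclear genes. In 21 of 80 (26.2%) all 12 Epi libraries lay under all 12 Fib libraries, and in 1 they lay above. Over all genes tested these shares were 11.7% and 7.06%. The 21 included 11 of complex I, among them Ndufv1, Ndufv2, Ndufv3 and Ndufb8, as well as Cox8a, Cox5b, Uqcrq, Uqcr10, Atp5g1 and Atp5h. For the mitochondrial genes the count was 0 of 13.

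Shorter nuclear genes had the larger differences. Among the 27 with the shortest exons (371 to 741 bases) 25 were called lower and 1 higher, with a median log2 fold change of -0.41. Of the middle 26 genes 17 were called lower and 1 higher (median -0.25). Of the 27 longest (1251 to 4912 bases) 17 were called lower and 3 higher (median -0.15). Length here joins the exons of all protein-coding transcripts of a gene, so it can exceed that of any single transcript. Which transcripts were present was not tested. Length was not set against fold over all genes. Spearman's rho between exon length and fold was 0.33 over the 80 genes, which share the same libraries and are not independent. Length separated Ndufa1 and Atp5k, both short, from Atp5a1, which is long. By this measure Atp5g1 and Ndufv3 are also long, but have large differences.

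**Figure D3:**
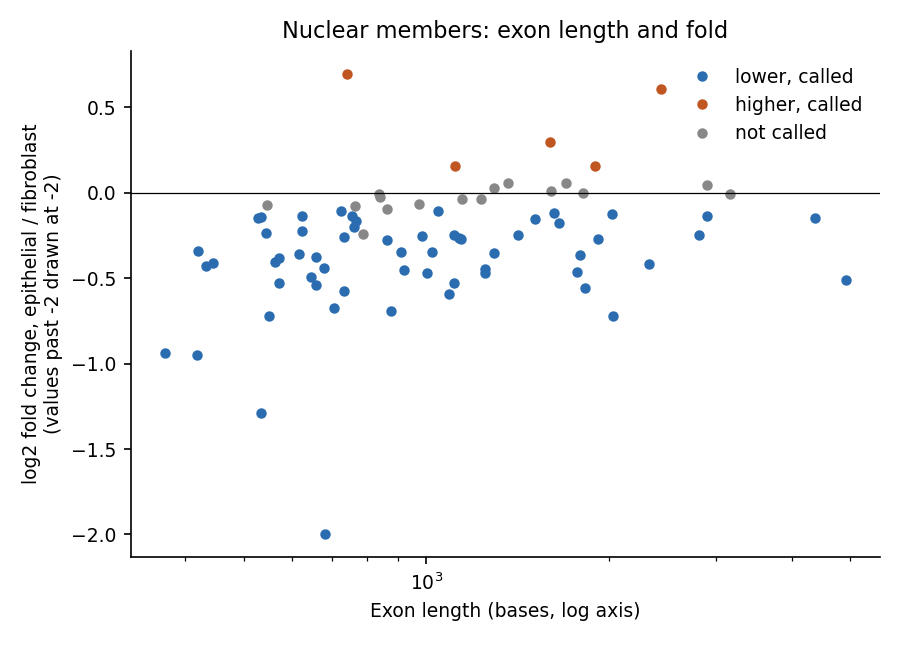
Exon length (bases, log axis) against log2 fold change, epithelial over fibroblast fraction, for the 80 nuclear genes tested, 1 point a gene. Lengths join the exons of all protein-coding transcripts of a gene. Points at the left, with short exons, reach lower folds, and the genes called higher in Epi (orange) include 3 of the 27 longest genes.

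Promoters of the nuclear genes are shown because the regulators NRF1, the ETS factor GABP and YY1 are known to drive genes of the respiratory chain. In the RefSeq table of GRCm38.p6, 69 of the 83 nuclear genes had a promoter, giving 75 windows of the 250 bases before the start. The NRF1 motif GCGCATG, on either strand, was in 13.3% of these windows and in 3.24% of all 32851 windows of the table. The ETS motif CCGGAAG, on either strand, was in 16% and 6.91%, and the YY1 motif AAGATGG, on either strand, in 2.67% and 4.49%. NRF1 and YY1 were first searched as 10-letter forms, of which these are the first 7 letters, and the shorter forms were chosen after the results of the longer ones had been seen. The 10-letter NRF1 form was in 5.33% of the windows and 0.782% of all, and the 10-letter YY1 form in 2.67% and 0.301%, so for YY1 the share in these windows was above that of all windows with the long form and below it with the short form. No motif contains another, and 26.7% of the windows held any of the 3, against 13.7% of all. The NRF1 motif was in 10 windows, those of Atp5g2, Atp5k, Atp5l, Cox5b, Cox6a1, Ndufa6, Ndufa8, Ndufa11, Ndufb6 and Sdhb. All 10 were called lower in Epi, as were 50 of the 69 genes with a promoter, and no test set the 10 against the rest. With the 10-letter form it was in 4, those of Atp5g2, Atp5k, Cox6a1 and Ndufa11. Those of Atp5k, Cox6a1 and Ndufa11, 1 gene of each of 3 complexes chosen after the values were seen, hold the motif on both strands as a palindrome and are printed 5′ to 3′ on the strand of the gene, with motif matches in capitals. They are Atp5k at chr5:108434400-108434649 on the minus strand (NRF1 from -50, counted from the start), Cox6a1 at chr5:115348959-115349208 on the minus strand (NRF1 from -162 and ETS from -16), and Ndufa11 at chr17:56717512-56717761 on the plus strand (NRF1 from -60).
Atp5k: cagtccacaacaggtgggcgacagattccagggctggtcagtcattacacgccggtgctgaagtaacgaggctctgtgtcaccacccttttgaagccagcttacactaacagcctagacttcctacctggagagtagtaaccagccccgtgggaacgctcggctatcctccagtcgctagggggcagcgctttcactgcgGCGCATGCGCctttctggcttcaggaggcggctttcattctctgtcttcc
Cox6a1: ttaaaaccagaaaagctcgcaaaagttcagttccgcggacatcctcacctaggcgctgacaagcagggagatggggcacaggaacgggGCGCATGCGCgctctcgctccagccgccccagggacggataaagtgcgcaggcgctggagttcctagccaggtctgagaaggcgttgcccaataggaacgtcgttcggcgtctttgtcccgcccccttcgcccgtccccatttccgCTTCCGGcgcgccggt
Ndufa11: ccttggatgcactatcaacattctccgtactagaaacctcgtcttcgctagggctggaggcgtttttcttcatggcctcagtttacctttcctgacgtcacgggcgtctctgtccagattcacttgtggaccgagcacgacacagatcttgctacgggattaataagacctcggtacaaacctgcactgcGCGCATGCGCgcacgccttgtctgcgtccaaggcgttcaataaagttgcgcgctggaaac
The matched letters describe these windows and no binding was measured. Nrf1 itself, like Tfam and Ppargc1a below named after its values were seen, was higher in Epi at 30.3 against 25 CPM (0.28 ± 0.05, adjusted p = 5.82e-05).

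The mitochondrial genes did not share a single fold, although the heavy-strand genes are transcribed together. In genome order the log2 fold changes, Epi over Fib, were -0.68 ± 0.09 for mt-Nd1, -0.63 ± 0.10 for mt-Nd2, 0.04 ± 0.05 for mt-Co1 and -0.47 ± 0.10 for mt-Co2. They were -0.04 ± 0.08 for mt-Atp8, -0.12 ± 0.08 for mt-Atp6, -0.14 ± 0.09 for mt-Co3 and -1.14 ± 0.17 for mt-Nd3. The rest were -0.25 ± 0.10 for mt-Nd4l, -0.21 ± 0.07 for mt-Nd4, -0.02 ± 0.07 for mt-Nd5, 0.16 ± 0.10 for mt-Nd6 and -0.32 ± 0.11 for mt-Cytb. The called genes were mt-Nd1, mt-Nd2, mt-Nd3, mt-Nd4, mt-Nd4l, mt-Cytb and mt-Co2, so 5 of the 7 complex I genes and the sole complex III gene were among them, and 0 of the 2 complex V genes.

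Neighbours on the mitochondrial genome can share reads. In the annotation mt-Atp6 overlaps mt-Atp8 and mt-Co3, mt-Nd4l overlaps mt-Nd4, and mt-Nd6 lies on the other strand and overlaps mt-Nd5. Strand-aware counting is not stated, and without it reads from the stretch that mt-Nd5 and mt-Nd6 share cannot be assigned to either gene. Reads of the other strand anywhere along mt-Nd6 could then also be counted for mt-Nd6. The call of mt-Nd4l was lost without FibCSETF of mouse 1 (adjusted p = 0.0507), FibVeh of mouse 2 (0.0533), EpiVeh of mouse 3 (0.0599), or all of mouse 1 (0.0916). Without mouse 3 the calls of mt-Nd4l (0.206), mt-Nd4 (0.18) and mt-Cytb (0.129) were lost. Of the uncalled genes, mt-Atp6 passed without EpiCSE of mouse 2 (0.0298) or EpiCSETF of mouse 2 (0.0416), mt-Nd6 without EpiVeh of mouse 3 (0.0436), and mt-Co3 with the culture as a block (0.0175).

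mt-Nd3, a small membrane subunit of complex I, showed the largest fold of the 13. It had 51.7, 72.7 and 151 CPM (lowest, median, highest) in Epi and 107, 173 and 232 CPM in Fib, and the adjusted p was 9.52e-06. The ranges overlapped, but within each of the 12 fraction pairs the Epi library was lower. mt-Nd1 had 2140, 2430 and 3680 CPM in Epi and 3120, 4230 and 5390 CPM in Fib, again lower in 12 of 12 fraction pairs (adjusted p = 2.86e-06). The mitochondrial ribosomal RNAs, which are not translated and lie beside mt-Nd1, were lower too, with mt-Rnr1 at -1.35 ± 0.21 and mt-Rnr2 at -1.50 ± 0.19 (adjusted p = 1.5e-05 and 1.42e-06), in libraries made from RNA with poly-A tails.

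mt-Co1, the catalytic subunit of complex IV that holds the heme-copper centre, was the most abundant of the 96 genes. It had 22200, 23700 and 27300 CPM in Epi and 20300, 23500 and 27600 CPM in Fib, so the ranges overlapped almost fully (adjusted p = 0.489). Per kilobase its level was 15600 CPM per kb in Epi, ahead of mt-Co2 at 3720, mt-Atp6 at 3320 and mt-Cytb at 2840. The lowest level per kilobase of the 13 was that of mt-Nd3, at 233 CPM per kb in Epi and 512 in Fib. The nuclear gene with the highest level per kilobase was Atp5b, at 405 in Epi and 489 in Fib, so it lay between mt-Nd3 and mt-Nd6 (800 and 717) in Epi and under mt-Nd3 in Fib. mt-Co1 alone made up 45.2 to 56.1% of the mitochondrial protein-coding CPM in Epi and 41.8 to 48.8% in Fib.

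**Figure D4:**
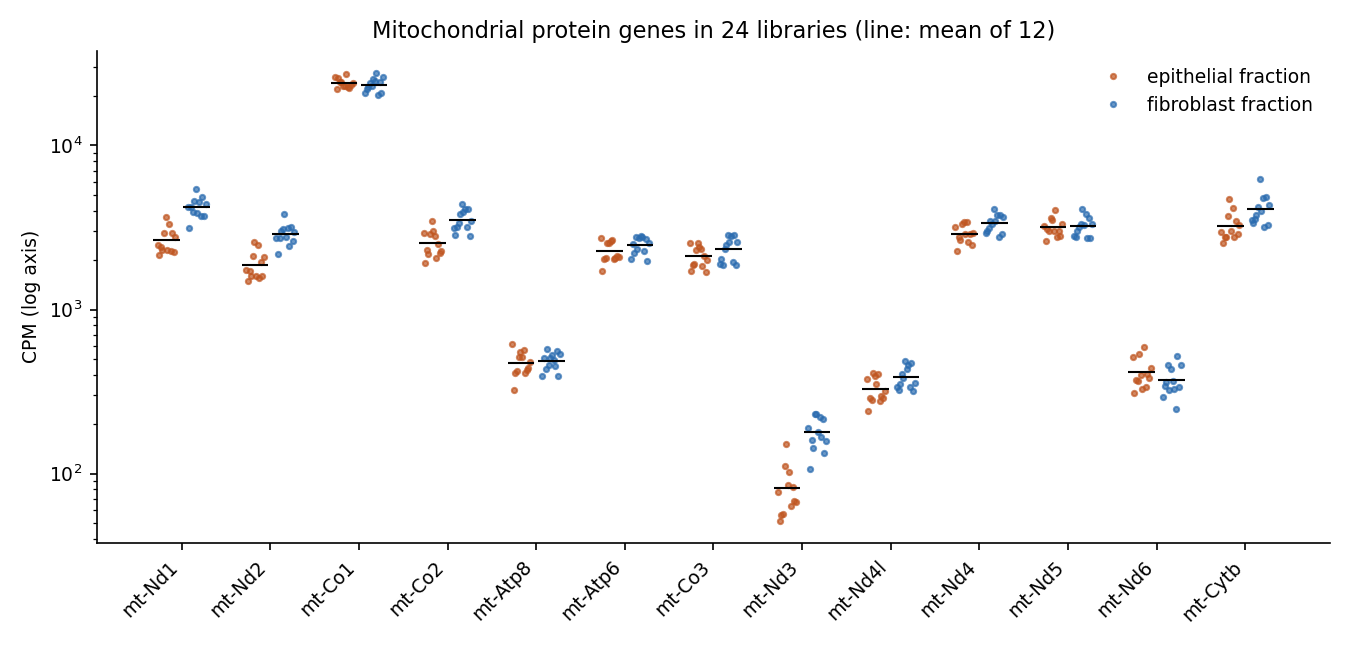
CPM (log axis) of the 13 mitochondrial genes in genome order, with each of 12 epithelial (orange) and 12 fibroblast (blue) libraries as a point and lines at the means. The clouds part most at mt-Nd3, mt-Nd1 and mt-Nd2 and lie over each other at mt-Co1 and mt-Nd5.

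Lists of genes that work with the respiratory chain are read against the 34.7% of all genes called higher in Epi and the 34.2% called lower. Of 47 assembly factors tested, 11 were called higher and 19 lower (median log2 fold change -0.10, against 0.025 over all genes), with Uqcc2, an assembly factor of complex III, at -0.98 ± 0.05, Sdhaf2, which inserts the flavin of Sdha, at -0.45 ± 0.03, and Ndufaf7, a methyltransferase for complex I, at -0.59 ± 0.05. The citric acid cycle and pyruvate dehydrogenase list had 18 of 22 called lower and 0 higher (median -0.18), led by malate dehydrogenase, Mdh2, at 230 CPM in Epi and 472 CPM in Fib (-1.03 ± 0.06). Electron carriers and isoforms outside the 96 genes were 3 higher and 7 lower of 13 (median -0.21), with cytochrome c, Cycs, at -0.52 ± 0.04 and cytochrome c1, Cyc1, at -0.44 ± 0.04. Glycolysis genes, the other route to ATP, were 2 higher and 11 lower of 17 (median -0.24), with Pgam1 at -0.81 ± 0.04.

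Of 19 genes that express the mitochondrial genome or drive mitochondrial biogenesis, 8 were called higher and 5 lower (median 0.08), against 34.7% and 34.2% of all genes. No test compared this list with the others. The mitochondrial RNA polymerase Polrmt (-0.45 ± 0.05) and the helicase Twnk, listed under its older symbol Peo1 (-0.52 ± 0.06), were lower, and the elongation factor Tefm was higher (0.36 ± 0.06). Tfam, which packs mitochondrial DNA, was not called at 0.08 ± 0.05 (adjusted p = 0.145), and Ppargc1a, a coactivator of mitochondrial biogenesis, was lower at 4.01 CPM in Epi against 8.37 CPM in Fib (-1.09 ± 0.22, adjusted p = 0.000187). Mitochondrial ribosomal protein genes were 19 higher and 32 lower of 77 (median -0.06), and cytosolic ones 15 higher and 49 lower of 79 (median -0.19).

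The nuclear genes were lower in Epi by their median under each treatment, and the mitochondrial genes under 3 of the 4. The median log2 fold change of the nuclear genes was -0.34 in Veh (73 of 80 genes negative), -0.22 in CSE (66), -0.19 in TF (60) and -0.25 in CSETF (71). For the mitochondrial genes the medians were 0.01 in Veh (6 of 13 negative), -0.36 in CSE (13), -0.22 in TF (10) and -0.29 in CSETF (12). Tests of whether CSE or the drugs acted differently on the fractions called 0 of 93 genes each, where 0% of all genes were called. At an unadjusted p under 0.05 there were 5 genes for CSE (8.63% of all genes tested) and 1 for the drugs (2.61% of all), and DESeq2 called 0 in both. The smallest adjusted p was 0.484, for Ndufb8 and CSE (0.23 ± 0.08).

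Within the epithelial fraction no treatment contrast called any of the 91 genes tested. For CSE without drugs, CSE under drugs, the drugs without CSE, the drugs after CSE and the interaction, edgeR called 0 members, where 0% of all genes were called. For CSE and the drugs averaged over the other factor it called 0, where 0.00554% of all genes were called in each. The number of genes with an unadjusted p under 0.05 was 1, 1, 0, 0, 1, 3 and 0 in this order, where the shares of all genes were 3.7%, 5%, 2.62%, 4.18%, 1.15%, 8.38% and 6.31%, and DESeq2 called 0 in each of the 7. Summed nuclear CPM was 6828 to 7180 in EpiVeh, 6795 to 7300 in EpiCSE, 6770 to 7446 in EpiTF and 6836 to 7344 in EpiCSETF, with all 4 ranges overlapping.

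The epithelial genes with the smallest p show the size of what was measured. For CSE averaged over drugs these were Uqcrb of complex III (-0.16 ± 0.06, adjusted p = 0.54), Sdhb (-0.10 ± 0.04, adjusted p = 0.545) and Ndufs1 (0.12 ± 0.05, adjusted p = 0.591). For the drugs averaged over CSE the first was Atp5j at 0.10 ± 0.05, positive in 6 of 6 pairs of libraries (adjusted p = 0.796). For the interaction it was mt-Nd6 at 0.69 ± 0.28 (adjusted p = 1). In the drug contrast without CSE all 13 mitochondrial genes were negative (median -0.13), and after CSE 8 of 13 were positive (median 0.08), with 0 called in either.

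In the fibroblast fraction, whose CCL206 cells had been added after CSE was withdrawn, 2 of the 92 genes tested were called lower after CSE averaged over drugs and 0 were called higher. Over all genes 2.18% were called lower and 1.83% higher in this contrast, so 2.53% of the nuclear genes lower is near the background. At an unadjusted p under 0.05 there were 18 of the 92 genes, against 21.2% of all genes tested. Ndufb8, a membrane-arm subunit of complex I, was at 93.4, 99.4 and 100 CPM in FibVeh (mouse 1, 2 and 3) and at 88.9, 78 and 79.9 CPM in FibCSE. With drugs it was at 88.6, 86.2 and 83.8 CPM in FibTF and 75.5, 76.9 and 75.9 CPM in FibCSETF. Both CSE groups lay below their own controls with no overlap, and the averaged log2 fold change was -0.21 ± 0.04 (adjusted p = 0.026, lower in 6 of 6 pairs). In the epithelial libraries the same gene ranged from 56.5 to 70.1 CPM.

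Ndufa4, a subunit of complex IV once assigned to complex I, was the other called gene. It was at 97.2, 100 and 98.8 CPM in FibVeh and 80.1, 80.4 and 81.2 CPM in FibCSE, with no overlap. With drugs it was at 94.1, 96.1 and 93 CPM in FibTF and 97.1, 94 and 87.1 CPM in FibCSETF, which overlapped. The averaged log2 fold change was -0.16 ± 0.04 (adjusted p = 0.0476, lower in 5 of 6 pairs), made up of -0.30 ± 0.06 without drugs (adjusted p = 0.0749) and -0.02 ± 0.06 with drugs (adjusted p = 0.922). The test of that difference gave 0.28 ± 0.08 (adjusted p = 1).

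Which genes passed the threshold in this contrast depended on single libraries and mice, while the folds moved little. When 1 library or 1 mouse was left out, the fold ran from -0.25 to -0.20 for Ndufb8 and from -0.17 to -0.14 for Ndufa4. With the mouse as a block 5 genes were called, with Ndufb8 (adjusted p = 0.0225), Ndufa4 (0.0415), Sdhb (0.0478) and Ndufa11 (0.0487) lower and mt-Co3 higher at 0.29 ± 0.08 (0.04). Without FibCSE of mouse 1, the library with high Col1a1, 6 genes were called, and without FibTF of mouse 2, 4. The count was 1 without FibVeh of mouse 1 or FibCSETF of mouse 2, and 0 without FibTF of mouse 1, FibVeh or FibCSE of mouse 2, or FibVeh, FibCSE, FibTF or FibCSETF of mouse 3. Without all of mouse 1 the count was 1, and without all of mouse 2 or all of mouse 3 it was 0. The adjusted p of Ndufb8 was 0.162 without mouse 2 and 0.562 without mouse 3, and that of Ndufa4 was 0.212 and 0.602. With a covariate for the epithelial minus the fibroblast markers, 5 genes were called. For these alternative fits the share of all genes called is not given here, so a higher count may not be particular to these genes. Sdhb was at 70.6, 75.2 and 79.6 CPM in FibVeh and 65.8, 67.2 and 64.5 CPM in FibCSE (averaged over drugs -0.19 ± 0.05, adjusted p = 0.0633, lower in 6 of 6 pairs).

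Nuclear and mitochondrial genes differed in sign in the CSE contrast of the fibroblasts without drugs, though 0 of 92 genes were called (background 0.104% in either direction, 0.093% lower and 0.0109% higher). Among the nuclear genes 73 of 79 had a negative fold (median -0.14), and among the mitochondrial genes 12 of 13 had a positive one (median 0.25). Over all genes tested 44.5% were negative and the median was 0.031. At an unadjusted p under 0.05 there were 29 of the 92 genes (13.3% of all genes tested). DESeq2 called 5, with Ndufa4, Ndufb8, Cox6b1 and Ndufb6 lower and mt-Nd6 higher, and its share over all genes is not given here. Cytosolic ribosomal protein genes were at 42350 to 44863 CPM in FibVeh and 34514 to 41176 CPM in FibCSE. Leukocyte markers summed to 39.1 to 44.4 CPM in FibVeh and 63.3 to 88.4 CPM in FibCSE, with Ptprc, Emr1 and Cd3e each under 0.13 CPM on average in Fib. Mesothelial markers summed to 824 to 1060 CPM and 632 to 774 CPM, and muscle markers to 25.4 to 33.3 CPM and 22.4 to 24.2 CPM. Each of these last sums was nearly all 1 gene: over Fib, Msln averaged 989 of 992 CPM and Des 24.5 of 25.4 CPM. FibVeh and FibCSE did not overlap in any of these 4 sums, and their part in the result was not tested. FibCSE of mouse 1 stood apart, with 45202 CPM of mitochondrial genes against 60686 and 55968 CPM in mouse 2 and 3, and without it the medians were -0.18 for the nuclear and 0.34 for the mitochondrial genes, with 0 called.

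mt-Nd6, the complex I subunit encoded on the light strand, was at 292, 322 and 247 CPM in FibVeh and 344, 436 and 518 CPM in FibCSE. The groups did not overlap, and the log2 fold change was 0.59 ± 0.16 (adjusted p = 0.164). As the use of strand is not stated, counts of mt-Nd6 may hold reads of the other strand. With drugs it was at 362, 369 and 336 CPM in FibTF and 456, 328 and 457 CPM in FibCSETF, which overlapped (0.22 ± 0.16, adjusted p = 0.626). In that contrast of CSE under drugs 0 of 92 genes were called (background 0%), with 3 at an unadjusted p under 0.05 (11.8% of all genes) and 0 by DESeq2. The mitochondrial genes were again positive, in 13 of 13 with a median of 0.21, while the nuclear median was 0.02.

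Summed levels showed FibVeh as the highest group for the nuclear genes. FibVeh had 8381, 8648 and 8969 CPM, FibCSE 8511, 7724 and 7991 CPM, FibTF 8132, 7751 and 7885 CPM, and FibCSETF 7678, 8234 and 8142 CPM. FibTF and FibCSETF lay below FibVeh in every library, and FibCSE overlapped it through mouse 1. The 9 epithelial markers summed to 2320 to 3250 CPM in FibVeh (mean 2727), 2270 to 3120 in FibCSE (2613), 2730 to 4500 in FibTF (3540) and 2900 to 4610 in FibCSETF (3803). Their means were higher where the drugs were given, but the ranges overlapped. With the marker covariate 0 genes were called in the fibroblast contrasts for the drugs, but 0 were called without it too, so the covariate could not lower the count. The part of these markers in the nuclear sums was not tested. The mitochondrial sum was 43723 to 51519 CPM in FibVeh, 45202 to 60686 in FibCSE, 44015 to 52764 in FibTF and 51375 to 58749 in FibCSETF.

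The drugs without CSE called 0 of 92 genes in the fibroblast fraction (background 0.00547%), with 22 at an unadjusted p under 0.05 (6.3% of all genes) and 0 by DESeq2. This contrast uses the same FibVeh libraries as the CSE contrast without drugs, so the values are set side by side only. Of the nuclear genes 77 of 79 were negative with a median of -0.15, and of the mitochondrial genes 6 of 13 (median 0.02). The smallest p belonged to Ndufa13 (-0.26 ± 0.07), Atp5e (-0.31 ± 0.09) and Cox5a (-0.21 ± 0.06), each with an adjusted p of 0.738. The interaction, which shares these libraries as well, called 0 (background 0%), with 9 at an unadjusted p under 0.05 (1.98% of all genes), 0 by DESeq2 and 77 of 79 nuclear genes positive.

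After CSE the drugs also called 0 of 92 fibroblast genes (background 0.0109%). The nuclear median was 0.01 and the mitochondrial median -0.01, with 2 genes at an unadjusted p under 0.05 (10.4% of all genes). Ndufa4 came first at 0.21 ± 0.06 (adjusted p = 0.36, higher in 3 of 3 pairs), and DESeq2 called it (adjusted p = 0.0379). Averaged over CSE the drugs called 0 (background 0.109%, with 0.0602% higher and 0.0492% lower), with 12 of 92 at an unadjusted p under 0.05 (14.9% of all genes) and 0 by DESeq2, and Ndufb8 came first at -0.15 ± 0.04 (adjusted p = 0.173).

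**Figure D5:**
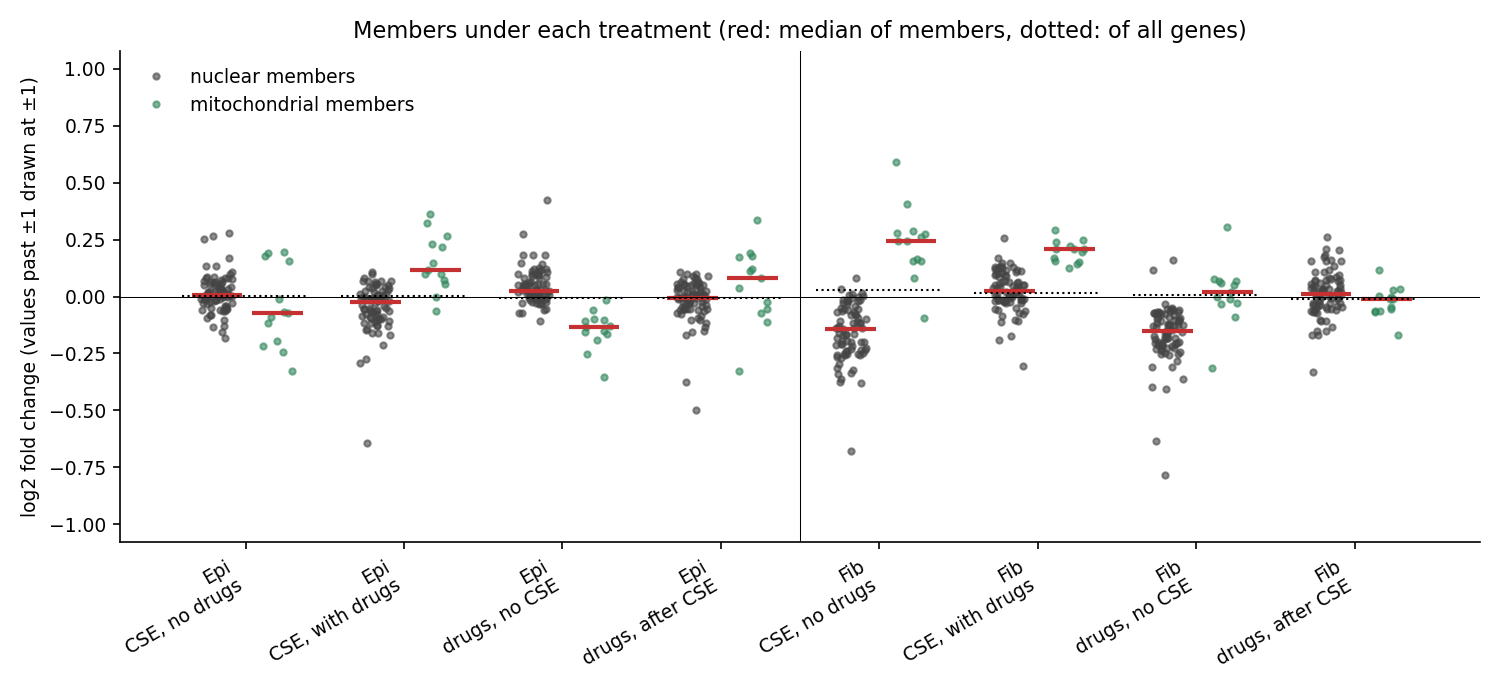
Log2 fold changes of the nuclear (grey) and mitochondrial (green) genes under 4 treatment contrasts in each fraction, 1 point a gene, with red lines at the members' medians and dotted lines at the median of all genes. In the fibroblast fraction the nuclear medians were -0.14 for CSE without drugs and -0.15 for drugs without CSE, contrasts that share the FibVeh libraries, and the mitochondrial medians were 0.25 and 0.21 in both CSE contrasts.

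Among the related lists in the fibroblast fraction, Uqcc2 (-0.32 ± 0.06, adjusted p = 0.0149) and Mdh2 (-0.33 ± 0.08, adjusted p = 0.0437) fell after CSE averaged over drugs. They were the sole called genes among 47 assembly factors and 22 citric acid cycle genes there, 1 of each list, near the 2.18% of all genes called lower. In the other contrasts within a fraction 0 genes of these 2 lists, of the electron carriers, of glycolysis or of mitochondrial gene expression were called.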

How the data were processed

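The values were raw counts of reads per gene as the authors deposited them, not normalised, in 1 table of 49280 features for 24 libraries. The libraries held polyA RNA, per the labels. Trimming was done with Trimmomatic 0.30, per the submitters' processing notes. Not given in the sources used here were the aligner, the counter, the treatment of reads that map to several places and the use of strand. Thus genes with processed pseudogenes, which many of these genes have, and overlapping genes can share reads. The labels name a reference that does not settle the mouse build, and counts were joined by Ensembl identifier only. The 5941 features without such an identifier, 0.574 to 1.06% of the counts, stayed in the fits. No column of another series was present.

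The main test was edgeR's robust quasi-likelihood F test (version 4.0.16, R 4.3.3) after TMM scaling and filterByExpr, run over the 24 libraries as 8 group means for the fractions and over 12 libraries as 4 group means within a fraction, with Benjamini-Hochberg adjustment over all genes tested. Labels give the mouse as the batch. For Epi, p-values reflect how libraries, each from 1 of 3 mice, varied around their group means, with the libraries taken as independent. For Fib they reflect how cultures of the single CCL206 line varied together with the RNA of the mice's epithelial cells that Fib libraries also held. Mice were not a term in the fit, and a block for the mouse was an alternative because libraries with the same number come from the same animal's cells. Deviations from the group means correlated between same-mouse libraries at 0.01 to 0.44 in Epi and -0.01 to 0.46 in Fib. Alternatives were DESeq2 1.42.0, upper-quartile scaling, no filter, scaling without mitochondrial genes, and blocks for the mouse or the culture. The culture block was mouse and treatment, assumed to be shared by both fractions. Further alternatives were a covariate for the epithelial minus the fibroblast markers, used within a fraction, and leaving out each library and each mouse. The fits were also run on simulated counts with the same spread setting for every gene and no mouse or culture effect. That setting is simpler than these data, so the run does not show how the fits perform here.

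Genes named are the 13 mitochondrial genes, per comparison up to 5 called genes in each direction, taken by size of fold at 5 CPM or more, or the 5 of lowest p if fewer passed, a fixed set of isoforms and core subunits, and the 3 of smallest p per related list. Other genes of a complex are named to account for its members and were chosen after their values were seen. The members and lists were chosen with earlier results of these data known. Exon lengths, also those behind the levels per kilobase, join the exons of all protein-coding transcripts of a gene in the basic GENCODE vM21 annotation. Promoters are from RefSeq's GRCm38.p6. Among 24 replicate pairs compared 0 were identical, with a chi-square per degree of freedom of 10.6 to 86.1. Promoter motifs were searched first with 10 letters for NRF1 and YY1 and then with 7, a change made after the first results were seen so that the letters could be printed, and both are reported.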

Additional observations from a re-analysis of the deposited data

How the results depend on the processing

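For the comparison of the fractions, the 71 genes called became 72 with DESeq2 and with upper-quartile scaling, 66 with no filter, 68 with scaling without mitochondrial genes, 71 with the mouse block, 73 with the culture block, and 61 to 75 when 1 library or 1 mouse was left out. In the fibroblast fraction, CSE averaged over drugs called 2 genes, against 8 with DESeq2, 1 with no filter, 5 with the mouse block and 5 with the marker covariate, and 0 to 6 when 1 library or 1 mouse was left out. CSE without drugs called 0 there, against 5 with DESeq2 and 1 (Ndufa4) with the covariate, and drugs after CSE called 0, against 1 with DESeq2. The cause was not tested. The share of all genes called under each alternative is not given here, so these counts show no change particular to these genes. The counts of the other comparisons stayed at 0 under all these settings, including the mouse block, which changed no other count by over 1.5 times. Folds of single genes were followed under these settings only for those named by rule or from the fixed set, not for all members. Among the genes followed, signs reversed only for genes of the fraction comparison that were not called. Sdhc had 0.0062 with no filter and 0.0091 with scaling without mitochondrial genes. When 1 library was left out, Sdhc ran from -0.0542 to 0.0033, mt-Nd5 from -0.0861 to 0.0021 and mt-Co1 from -0.0076 to 0.0539. Without mouse 1, Sdhc was at 0.008 and mt-Co1 at -0.011, and without mouse 3, Cox7a2l was at 0.0084 and mt-Atp8 at 0.0108. Genes with few counts (Cox6a2, Cox4i2) were measured poorly. The share of promoters with a YY1 motif depended on the motif's length, which was changed after the data were seen: 2.67% against 4.49% of all windows with 7 letters, and 2.67% against 0.301% with 10. For NRF1 the shares were 13.3% against 3.24% and 5.33% against 0.782%.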
